A study of Homo sapiens with 4 samples.

Results

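Polycomb repressive complex genes were followed in H1792, an established human lung cancer line, after treatment with ACBI1. The 10 genes were EZH2, EZH1, SUZ12, EED and JARID2 of Polycomb repressive complex 2 (PRC2) and RING1, RNF2, BMI1, CBX2 and CBX8 of PRC1. They were taken by symbol from the 61228 features counted in each library, and all 10 passed the filter on low counts that left 19159 genes to test. The study held 4 RNA-seq libraries of H1792 cells labelled wild type: 2 from cells kept with the solvent DMSO and 2 from cells kept with ACBI1, for 96 h and at a dose that the labels write as 1 mM, which is high for a PROTAC and could not be checked against another source. ACBI1 is a PROTAC, a molecule that brings SMARCA2, SMARCA4 and PBRM1, proteins of the SWI/SNF chromatin remodelling complexes, to the VHL ubiquitin ligase for degradation. The labels do not say whether the 2 libraries of a group came from separate cultures, so that p-values measure the spread between these libraries, which may be technical.

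PRC2 places methyl groups on lysine 27 of histone H3. Its catalytic subunit is EZH2 or the paralog EZH1, SUZ12 is the scaffold, EED binds the finished mark and JARID2 is an accessory subunit that helps to bring the complex to chromatin. PRC1 attaches ubiquitin to lysine 119 of histone H2A through RING1 or RNF2, which pair with a PCGF protein such as BMI1, while CBX2 and CBX8 are chromobox subunits that read the PRC2 mark. SWI/SNF complexes are known to evict Polycomb complexes from chromatin, and loss of SWI/SNF function in tumours is known for making cells depend on EZH2.

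Counts assigned to genes ranged from 64281850 to 86010100 per library. Pearson's r of log2 counts per 1000000 (CPM) across tested genes, which are not independent replicates, was 0.983 and 0.986 within groups and 0.928 to 0.948 between them. None of the transcripts of the degrader's targets was called. The log2 change was -0.40 for SMARCA2 (edgeR adjusted p 0.163), 0.70 for SMARCA4 (edgeR adjusted p 0.0583) and 0.10 for PBRM1 (edgeR adjusted p 0.734). SMARCA2 was lower and SMARCA4 higher in both ACBI1 libraries, and the groups of PBRM1 overlapped. Since ACBI1 acts on proteins, these transcripts do not check the labels. Keratin transcripts of the epithelial list were present, with KRT7 at 679 CPM and KRT8 at 174 CPM as DMSO means. KRT19 and EPCAM were low, with DMSO means of 4.22 and 4.08 CPM. However, 4 of the 5 epithelial genes tested were called lower with ACBI1, beside 10.6% of all tested genes. CDH1 had too few counts to test. EPCAM, the remaining gene, had a log2 change of 1.32 and was not called (edgeR adjusted p 0.179). Lung lineage markers summed to 0.112 to 0.334 CPM per library, with NKX2-1 and SCGB1A1 at 0, so these libraries carry no positive check of lung identity. Markers of blood, vessel and fibroblast cells summed to 345 and 764 CPM with DMSO and to 63.0 and 212 CPM with ACBI1, and most of this was COL1A1, while PECAM1 of endothelium was at 12.2 and 48.1 CPM with DMSO and below 0.05 CPM with ACBI1. CD3E of T cells was at 0 and PTPRC of leukocytes was below 0.05 CPM in each group. The part of these marker changes in the Polycomb values was not tested.

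Promoter sequence is shown for the 2 genes that passed the test, RNF2 and JARID2, and for the paralog and the catalytic subunit set beside them, RING1 and EZH2. Each run is 150 bases that end just before the RefSeq start site (build GRCh38.p14), written 5′ to 3′ along the gene's strand. Capitals mark matches to the E2F letters TTTGGCGC, TTTCGCGC, TTTCCCGC or TTCCCGCC, or to the NF-Y letters CCAAT, searched on both strands; TTTCCCGC and TTCCCGCC can overlap, and CCAAT reads ATTGG on the other strand. The RNF2 run is chr1:185045408-185045557 on the plus strand, RING1 is chr6:33208350-33208499 on the plus strand, JARID2 is chr6:15245919-15246068 on the plus strand and EZH2 is chr7:148884292-148884441 on the minus strand.
RNF2: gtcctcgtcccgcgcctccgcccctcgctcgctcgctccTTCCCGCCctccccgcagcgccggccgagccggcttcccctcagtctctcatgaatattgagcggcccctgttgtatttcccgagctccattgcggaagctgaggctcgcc
RING1: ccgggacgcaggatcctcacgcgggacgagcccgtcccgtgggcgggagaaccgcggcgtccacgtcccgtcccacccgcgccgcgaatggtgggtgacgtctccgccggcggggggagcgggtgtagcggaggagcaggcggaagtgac
JARID2: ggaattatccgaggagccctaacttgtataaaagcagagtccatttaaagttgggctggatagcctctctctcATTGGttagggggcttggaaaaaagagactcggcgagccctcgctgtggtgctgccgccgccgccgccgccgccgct
EZH2: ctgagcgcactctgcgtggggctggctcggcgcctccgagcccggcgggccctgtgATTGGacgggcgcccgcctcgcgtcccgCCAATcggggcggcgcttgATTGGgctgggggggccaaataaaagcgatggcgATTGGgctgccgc
The RNF2 run held 1 match to TTCCCGCC, at 111 to 104 bases before the start. The RING1 run held none of these letters. The JARID2 run held 1 CCAAT match, and the EZH2 run held 4 within 94 bases of the start. RefSeq gives a second start for EZH2 and for JARID2, and the 150 bases before each of these (chr7:148883486-148883635 and chr6:15248705-15248854) held no match. At its first start EZH2 also had TTTGGCGC at positions 2 to 9 counted from the start site as 1, which is the same 8 letters that E2F1 and E2F2 have before their own starts. SUZ12 had TTTCCCGC at 189 to 182 bases before its start.

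RefSeq promoter windows (250 bases before to 50 after the start) were matched for 8 of the 10 genes by symbol, as 11 windows. Any of the 4 E2F strings was found in 3 of these 11 windows (27.3%), those of EZH2, SUZ12 and RNF2. The share was 6.35% over 22199 windows of protein-coding genes, 5.77% over 52 windows of the other PRC1 and PRC2 genes listed, and 58.3% over 24 windows of E2F factors and replication genes. CCAAT was found in 4 of the 11 windows (36.4%), against 34.7% of the windows of protein-coding genes. GC content of the 11 windows ranged from 52.3% to 91.0%, with a median of 62.3% over protein-coding genes. These matches describe the letters only.

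Of the 10 genes, RNF2 rose and JARID2 fell, and the other 8 did not pass an edgeR adjusted p of 0.05. That is 2 of 10 (20%), beside 17.4% of all tested genes, with 1 rise beside a background of 6.75% and 1 fall beside 10.6%, so the share called was near the background. In 9 of the 10 genes both libraries of one group lay above both of the other, which held for 63.2% of all tested genes. The ACBI1 pair was the higher one in 5 of them (31.1% over all genes) and the lower one in 4 (32.2% over all genes). The median log2 change of the 10 was 0.24, and that of all tested genes was 0.01. In these bulk samples, fewer cells with a transcript and less transcript per cell cannot be told apart.

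**Figure D1:**
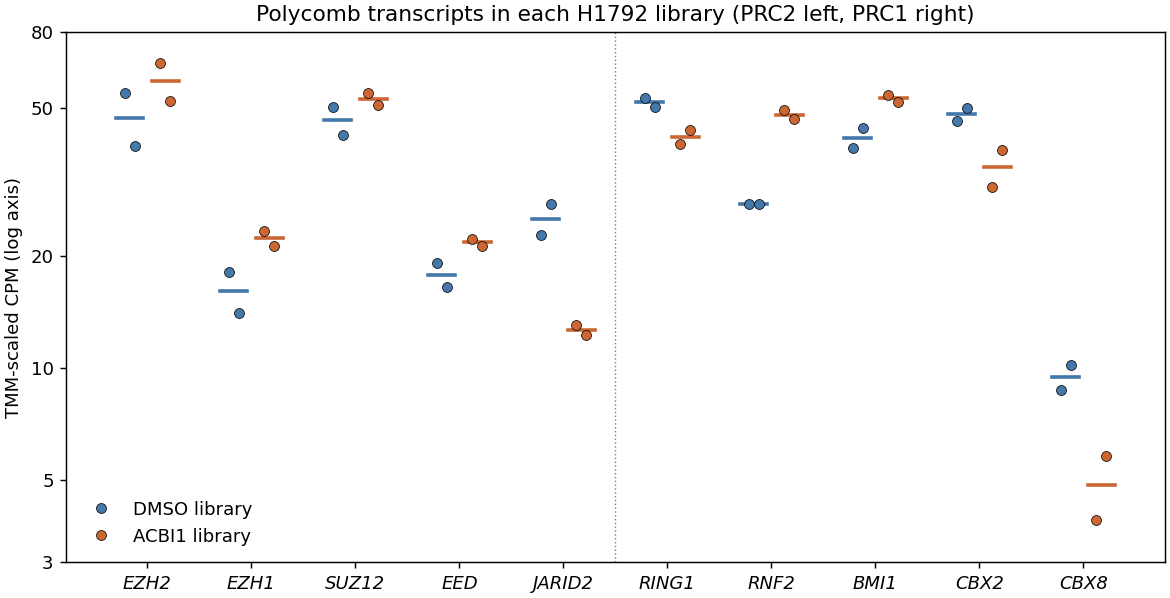
TMM-scaled CPM (vertical, log axis) of the 10 Polycomb genes in each of the 4 libraries, with PRC2 genes on the left and PRC1 genes on the right; points are libraries and bars are group means. RNF2 is at 27.6 CPM in both DMSO libraries and at 49.3 and 46.6 CPM in the ACBI1 libraries, JARID2 lies lower in both ACBI1 libraries, and EZH2 is the only gene of the 10 whose groups overlap.

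The catalytic subunit gene EZH2 (chromosome 7, 148807383 to 148884321, GENCODE 29 on GRCh38) was at 54.8 and 39.4 CPM in DMSO replicates 1 and 2 and at 66.0 and 52.3 CPM in ACBI1 replicates 1 and 2. The DMSO libraries were farther apart than the group means, and DMSO replicate 1 lay above ACBI1 replicate 2. The log2 change was 0.33 (SE 0.22), with an edgeR adjusted p of 0.344 and a 95% interval from -0.21 to 0.86, which takes in a rise of up to 1.82-fold. It moved with the library left out, to 0.11 without DMSO replicate 2, 0.16 without ACBI1 replicate 1, 0.48 without ACBI1 replicate 2 and 0.59 without DMSO replicate 1.

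The paralog EZH1 (chromosome 17, 42700275 to 42745049), a methyltransferase with weaker activity that is known from non-dividing cells, was at 18.1 and 14.1 CPM with DMSO and at 23.4 and 21.3 CPM with ACBI1. Both ACBI1 libraries were the higher ones, but the difference, 0.48 on the log2 scale (SE 0.20), did not pass (adjusted p 0.160). Per kilobase of exon, EZH2 exceeded EZH1 by 4.69 and 4.33 times in the DMSO libraries and by 4.37 and 3.79 times in the ACBI1 libraries. The balance between the 2 enzymes therefore overlapped between groups, and EZH2 made up 79.1% to 82.4% of their summed level per kilobase in each library.

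SUZ12 (chromosome 17, 31937018 to 32001045) and EED (chromosome 11, 86244544 to 86278813), which hold the enzyme in its active form, had small differences between groups and were not called. SUZ12 was at 50.4 and 42.2 CPM with DMSO and at 55.0 and 50.9 CPM with ACBI1, a log2 change of 0.19 (SE 0.17, adjusted p 0.461). EED was at 19.1 and 16.5 CPM with DMSO and at 22.3 and 21.3 CPM with ACBI1, a log2 change of 0.29 (SE 0.18, adjusted p 0.312). In both genes the lower ACBI1 library lay above the higher DMSO library, by less than the gap between the DMSO libraries. The group means of EED (17.8 and 21.8 CPM) were farther apart than its DMSO libraries, and those of SUZ12 (46.3 and 52.9 CPM) were not. Their 95% intervals, from -0.21 to 0.59 for SUZ12 and from -0.15 to 0.73 for EED, leave room for changes of up to 1.51-fold and 1.66-fold.

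JARID2 (chromosome 6, 15246296 to 15522040) was the PRC2 gene that fell. It was at 22.7 and 27.5 CPM in the DMSO libraries and at 13.01 and 12.2 CPM in the ACBI1 libraries, that is 25.1 ± 3.39 against 12.6 ± 0.563 CPM (SD, n = 2). The groups were well apart, and the log2 change was -0.99 (SE 0.19, edgeR adjusted p 0.0222), which is 49.8% lower. It was called under all 8 alternatives that used the 4 libraries without a block, with adjusted p from 0.000305 to 0.0282. The call was lost when 1 library was dropped in 3 of 4 cases, with log2 changes of -0.85 without DMSO replicate 2 (adjusted p 0.0550), -1.03 without ACBI1 replicate 1 (adjusted p 0.0916) and -0.96 without ACBI1 replicate 2 (adjusted p 0.0928). Over the 4 fits with 1 library dropped, the log2 change stayed between -1.12 and -0.85.

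Other accessory subunits of PRC2 went in both directions. EPOP, which binds the PRC2.1 form of the complex and links it to elongin, rose from 18.5 and 16.1 CPM to 46.6 and 48.9 CPM, a log2 change of 1.46 (SE 0.17, adjusted p 0.00548). PHF1, a Polycomb-like protein of PRC2.1, fell from 44.9 and 48.2 CPM to 26.5 and 26.1 CPM, a log2 change of -0.82 (SE 0.15, adjusted p 0.0193). Its paralog PHF19 was at 65.8 and 62.2 CPM and then at 93.2 and 91.6 CPM, a difference of 0.53 on the log2 scale (SE 0.15, adjusted p 0.0576) that was not enough for a call. EPOP remained called with each library left out in turn, whereas PHF1 lost its call without ACBI1 replicate 1 (log2 -0.83, adjusted p 0.103) and without ACBI1 replicate 2 (log2 -0.82, adjusted p 0.0898). The remaining accessory genes MTF2, AEBP2, LCOR and LCORL and the histone-binding subunits RBBP4 and RBBP7 had log2 changes from -0.08 to 0.19 and were not called.

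Set side by side per kilobase of exon, the 8 accessory transcripts changed places. JARID2 was 8.12% and 9.74% of their sum in the DMSO libraries and 4.11% and 3.90% in the ACBI1 libraries. PHF1 made up 26.8% and 28.5% with DMSO and 14.0% and 13.9% with ACBI1. EPOP took 10.7% and 9.22% with DMSO and 23.8% and 25.2% with ACBI1, so that EPOP passed PHF1. The ratio of EPOP to JARID2 per kilobase was 1.32 and 0.947 in the DMSO libraries and 5.80 and 6.47 in the ACBI1 libraries. No such value of 2 against 2 libraries can reach an exact permutation p below 0.333, so these shares carry no test of their own.

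The ubiquitin ligase gene RNF2 (chromosome 1, 185045364 to 185102608), which encodes RING1B, was the PRC1 gene that rose. It was at 27.6 CPM in both DMSO libraries and at 49.3 and 46.6 CPM in the ACBI1 libraries. The libraries of a group differed far less than the groups did, and the log2 change was 0.80 (SE 0.15, edgeR adjusted p 0.0205), or 1.74-fold. RNF2 was called under all 8 alternatives on the 4 libraries without a block (adjusted p 0.000876 to 0.0229). Without ACBI1 replicate 1 the log2 change was 0.77 (adjusted p 0.11) and without ACBI1 replicate 2 it was 0.83 (adjusted p 0.0752), so the call was lost at nearly the same size.

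RING1 (chromosome 6, 33208495 to 33212722), the paralogous ligase, was at 53.1 and 50.5 CPM with DMSO and at 39.9 and 43.6 CPM with ACBI1. Both ACBI1 libraries were lower, but the difference of -0.31 on the log2 scale (SE 0.15) did not pass (adjusted p 0.206). Per kilobase of exon, the ratio of RNF2 to RING1 was 0.232 and 0.244 in the DMSO libraries and 0.551 and 0.478 in the ACBI1 libraries. RNF2 held 18.8% and 19.6% of the summed ligase level with DMSO and 35.5% and 32.3% with ACBI1. The sum itself was 36.0 and 34.5 CPM per kilobase with DMSO and 34.1 and 35.4 with ACBI1. On this scale the total overlapped between groups while its division did not. The total depends on the exon lengths used, 1.818 kb for RING1 and 4.073 kb for RNF2. Without scaling by length, the summed CPM of RING1 and RNF2 was higher in both ACBI1 libraries than in both DMSO libraries.

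**Figure D2:**
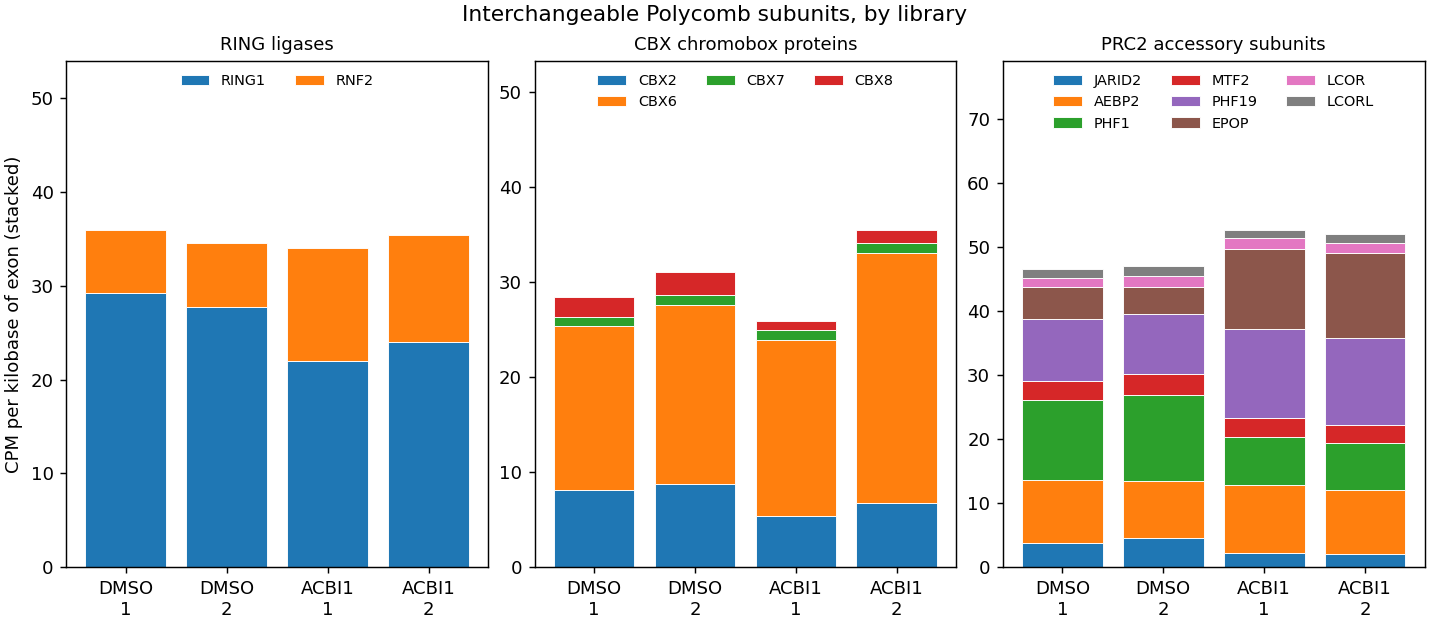
Stacked CPM per kilobase of exon (vertical, from 0) of the RING ligases, 4 CBX chromobox proteins and the PRC2 accessory subunits, with 1 bar for each library. The RNF2 part of the ligase bar grows from 18.8% and 19.6% with DMSO to 35.5% and 32.3% with ACBI1. The ligase total per kilobase is similar, which depends on the exon lengths used. In the accessory bar EPOP grows while JARID2 and PHF1 shrink.

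BMI1 (chromosome 10, 22321211 to 22331484), also called PCGF4, partners the ligases in canonical PRC1. It was at 38.9 and 44.2 CPM with DMSO and at 54.3 and 51.9 CPM with ACBI1, 0.35 higher on the log2 scale (SE 0.16), and was not called (adjusted p 0.170). Exons of the read-through gene COMMD3-BMI1 cover 23.3% of the exonic length of BMI1. COMMD3-BMI1 itself was listed at 0 counts in each library, and the counts of BMI1 may lack reads from the shared exons. The closest paralog PCGF2 differed by -0.05 on the log2 scale and was not called (adjusted p 0.831). Other genes cover 45.7% of the exons of PCGF2. Per kilobase, BMI1 was 0.543 and 0.569 of PCGF2 with DMSO and 0.765 and 0.712 with ACBI1.

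The chromobox genes CBX2 and CBX8 had lower values with ACBI1, and neither was called. CBX8 (chromosome 17, 79792132 to 79801683) was at 8.72 and 10.2 CPM with DMSO and at 3.89 and 5.80 CPM with ACBI1. Its groups were apart and its log2 change of -0.96 (SE 0.29) was close in size to that of JARID2, but its SE was larger and the adjusted p was 0.0726. Of the 8 alternatives without a block, 2 called CBX8 (adjusted p 0.0130 with DESeq2 and 0.0188 with every gene that had a count, in a range from 0.0130 to 0.0875). DESeq2 called 23.5% of all tested genes. CBX2 (chromosome 17, 79778132 to 79787983) was at 46.2 and 49.9996 CPM with DMSO and at 30.6 and 38.6 CPM with ACBI1, a log2 change of -0.48 (SE 0.18, adjusted p 0.120).

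CBX2 and CBX8 lie next to each other on chromosome 17, with 4.15 kb between them, and both were lower in both ACBI1 libraries. CBX6 and CBX7, further chromobox subunits that lie on another chromosome, had log2 changes of 0.32 (adjusted p 0.349) and 0.09 (adjusted p 0.833), with overlapping groups in each. Per kilobase, CBX8 was 7.37% and 7.84% of the summed level of CBX2, CBX6, CBX7 and CBX8 with DMSO and 3.60% and 3.92% with ACBI1, while CBX2 went from 28.6% and 28.3% to 20.8% and 19.1%. CBX6 held the largest share of the 4 in each library, at 60.7% and 60.4% with DMSO and 71.3% and 74.1% with ACBI1.

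The levels of the 10 genes per kilobase of exon placed RING1 first in each library, at 29.2 and 27.8 CPM per kilobase with DMSO and 21.96 and 23.97 with ACBI1. With DMSO, EZH2, BMI1 and CBX2 followed at 8.13 to 12.1, and BMI1 (9.09 and 10.3) lay above CBX2 (8.13 and 8.79), while EZH2 overlapped both. SUZ12 and RNF2 came next at 6.45 to 7.70. EED, EZH1 and CBX8 were lowest, at 2.01 to 2.72, and could not be ordered. With ACBI1, RNF2 stood at 12.1 and 11.4, a range that overlapped that of EZH2 (14.6 and 11.6), and next to BMI1 (12.7 and 12.1). JARID2 moved from 3.78 and 4.58, above EED and EZH1, to 2.16 and 2.03, below both. CBX8 was the lowest with ACBI1, at 0.934 and 1.39. The order between genes, like the shares and sums per kilobase, depends on exon length. That length took in all annotated exons, whichever transcripts the cells use. By CPM alone EZH2 (66.0 and 52.3) lay above RING1 (39.9 and 43.6) with ACBI1. With DMSO the CPM of EZH2 (54.8 and 39.4) and RING1 (53.1 and 50.5) overlapped.

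Among the 34 other PRC1 and PRC2 genes listed, 7 were called (20.6%, beside 17.4% of all tested genes), and the list's median log2 change was 0.16. Of the 7, 6 were higher and 1 was lower, while 6.75% of all tested genes were called higher and 10.6% lower. The higher ones besides EPOP belonged to PRC1. SCML2, a Polycomb protein that binds RNA, rose from 16.3 and 10.995 CPM to 32.04 and 26.1 CPM (log2 1.09, SE 0.25, adjusted p 0.0340), and SCMH1, a relative that joins canonical PRC1, rose by 0.71 on the log2 scale (adjusted p 0.0337). In variant PRC1, which works without CBX proteins, 3 of 17 genes rose (17.6%, beside rises in 6.75% of all tested genes). KDM2B, which brings the PCGF1 complex to CpG islands, rose from 58.9 and 49.6 CPM to 94.9 and 101 CPM (log2 0.85, SE 0.16, adjusted p 0.0220). MGA, a DNA-binding subunit of the PCGF6 complex, rose by 0.83 (adjusted p 0.0256) and FBRSL1 by 0.87 (adjusted p 0.0433), also on the log2 scale. Of the 7 calls, 2 were left without DMSO replicate 2 (EPOP and PHF1) and 1 without either ACBI1 replicate (EPOP), where fewer genes were also called over the whole table.

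**Figure D3:**
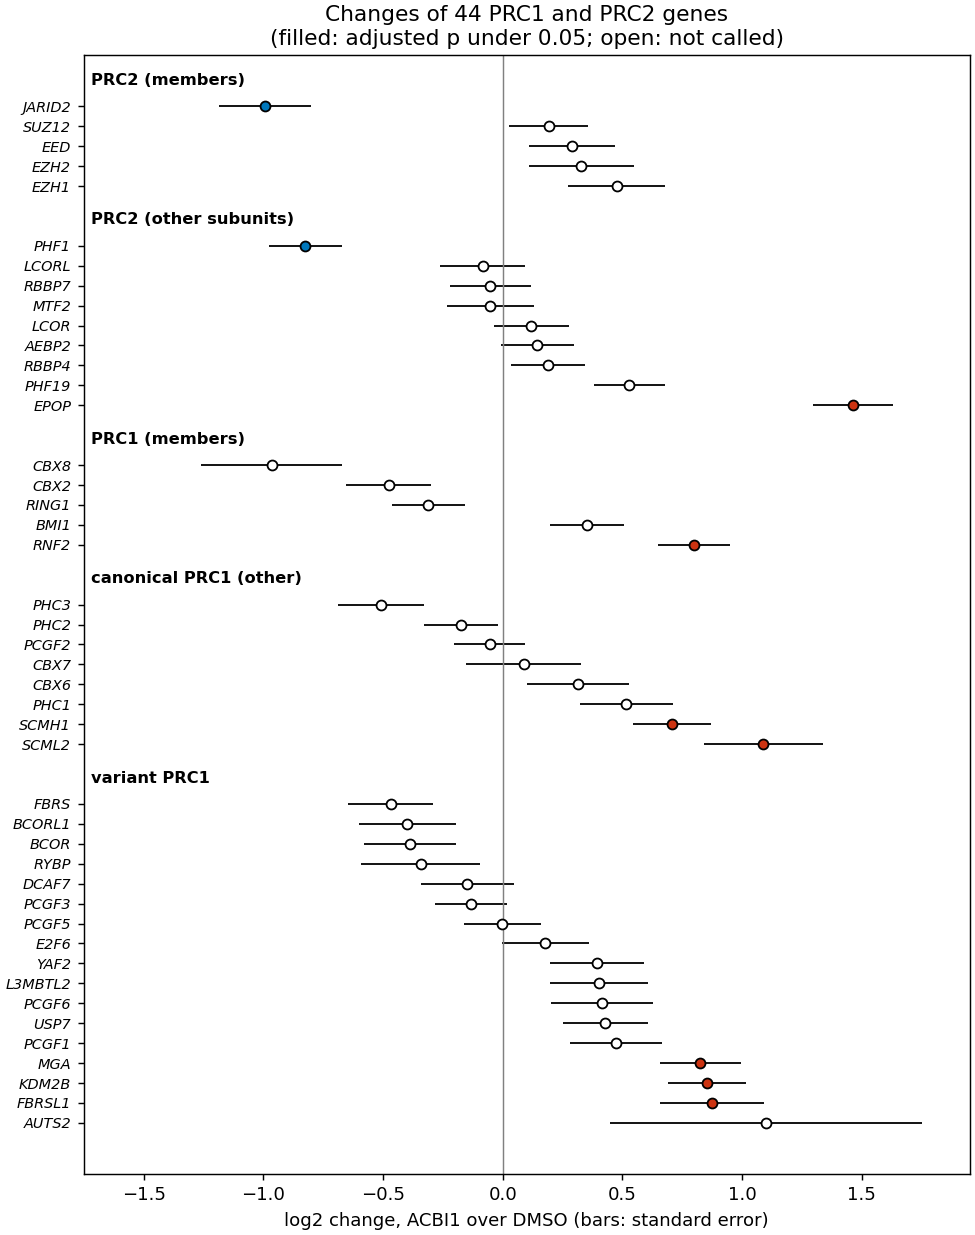
log2 change with ACBI1 over DMSO (horizontal, bars give the standard error) of 44 PRC1 and PRC2 genes, grouped by complex; filled points passed an edgeR adjusted p of 0.05. The 9 filled points are JARID2 and PHF1 on the lower side and RNF2, EPOP, SCML2, SCMH1, KDM2B, MGA and FBRSL1 on the higher side. EZH2, EZH1, SUZ12 and EED lie between 0.19 and 0.48 and are not called.

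Enzymes that remove Polycomb marks and partner genes of these enzymes were given a list of their own. KDM6A and KDM6B, the demethylases of histone H3 lysine 27, had log2 changes of -0.34 (adjusted p 0.289) and -0.27 (adjusted p 0.404). Of the 9 genes for the PR-DUB complex, which removes ubiquitin from histone H2A, and its partners, 1 was called. That gene was KDM1B, a demethylase of histone H3 lysine 4, which rose from 36.7 and 29.6 CPM to 77.7 and 70.9 CPM (log2 1.16, SE 0.18, adjusted p 0.0110), and it was called with each library left out in turn. The catalytic subunit gene BAP1 had a log2 change of 0.12 (adjusted p 0.637). Together 1 of 11 opposing genes (9.09%) was called, beside 17.4% of all tested genes, and BAP1, KDM6A and KDM6B were not called.

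Genes that are textbook targets of Polycomb repression were counted as well. Of 38 HOX genes, 27 had enough reads to test, and 22 of these had a negative log2 change (9498 of 19159 over all tested genes), with a list median of -0.35 beside 0.01 for all tested genes and a range from -0.37 to -0.22 over the alternatives. Of the 27, 1 was called (3.70%, beside 17.4% of all tested genes): HOXA3 fell from 53.2 and 33.9 CPM to 21.5 and 23.2 CPM (log2 -0.96, adjusted p 0.0448). Exons of other genes cover more than 10% of the exonic length of 18 of the 38, HOXA3 among them (17.9%), so reads of neighbours and antisense transcripts may be mixed in. HOXB9, the HOX gene with the most reads, was at 106 and 98.4 CPM with DMSO and at 85.6 and 74.7 CPM with ACBI1, and was not called (adjusted p 0.180). HOXA3 lost its call without DMSO replicate 1 (log2 -0.59, adjusted p 0.109), without ACBI1 replicate 1 (log2 -0.90, adjusted p 0.163), without ACBI1 replicate 2 (log2 -1.02, adjusted p 0.102), and with limma-voom (log2 -0.93, adjusted p 0.0548).

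Of 36 other developmental regulators, 17 could be tested and 4 were called (23.5%, beside 17.4% of all tested genes), 2 higher and 2 lower. Over all tested genes, 6.75% were called higher and 10.6% lower. MSX1, a homeobox factor, fell from 27.8 and 44.4 CPM to 16.0 and 16.2 CPM (log2 -1.16, SE 0.25, adjusted p 0.0294), and IRX3 fell from 31.9 and 30.6 CPM to 19.4 and 15.8 CPM (log2 -0.83, SE 0.18, adjusted p 0.0310). EOMES, a T-box factor, rose from 0.651 and 0.653 CPM to 2.63 and 2.38 CPM (log2 1.94, SE 0.34, adjusted p 0.0163). LHX2 was called higher on 2 and 2 counts in the DMSO libraries against 126 and 28 in the ACBI1 libraries, and its fold change is not given because it depends on the prior count. Genes that stayed at or near 0 were many: 19 of the 36 were not tested. CDKN2A and CDKN2B of the INK4 locus, a known target of BMI1, had 2 to 15 counts per library and were not tested. Without ACBI1 replicate 1 none of the 44 tested target genes was called, and without ACBI1 replicate 2 those called were LHX2 and EOMES; without DMSO replicate 2 the call of MSX1 (log2 -0.79) was lost.

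EZH2 and EED are known as E2F targets, so a list of E2F factors and replication genes was set beside them. Of its 20 genes, 15 (75%) were called and all 15 rose, beside rises in 6.75% of all tested genes, and the list's median log2 change was 1.24. E2F1 rose from 49.2 and 37.4 CPM to 149 and 180 CPM (log2 1.93, adjusted p 0.00485), and E2F2 from 4.79 and 4.56 CPM to 38.7 and 41.6 CPM (log2 3.10, adjusted p 0.00141). MCM3, a subunit of the replicative helicase, had a log2 change of 1.74 (adjusted p 0.00396), MCM5 one of 1.72 (adjusted p 0.00534), MCM7 one of 1.70 (adjusted p 0.0165) and MCM2 one of 1.69 (adjusted p 0.00931). Not called were E2F3, CDC6, RRM2, CCNE2 and CCNE1, 5 in number, with log2 changes of 0.08 to 0.66. These 5 changes lay inside the 95% interval of EZH2 (-0.21 to 0.86). The changes of all 15 called genes lay above that interval, the lowest being MCM6 at 0.94. Called genes had been picked by the threshold for large changes, so this split follows in part from the threshold. The 95% interval of MCM6 itself (0.39 to 1.49) overlapped that of EZH2. So did those of CDC45, POLA1, RFC4, GINS1 and PCNA, while those of the remaining called genes did not. EZH2, EED and SUZ12 had positive changes of 0.19 to 0.33 that were not called. The part of these replication changes in the Polycomb values was not tested.

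**Figure D4:**
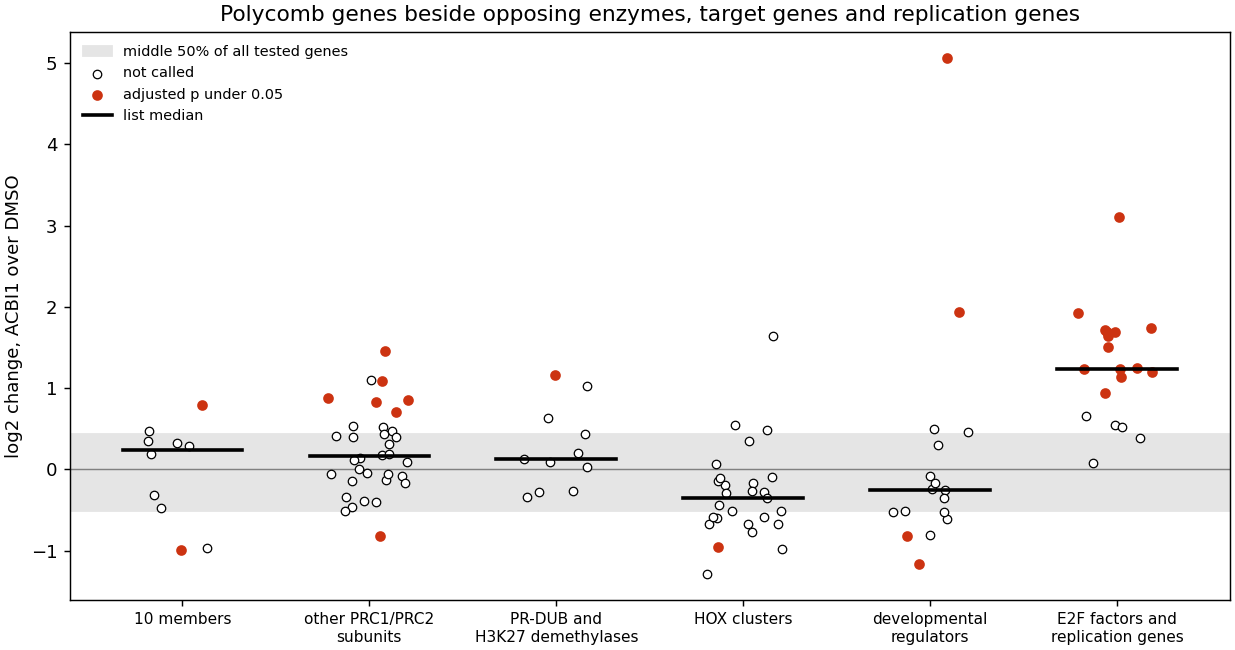
log2 change with ACBI1 over DMSO (vertical) of each tested gene in 6 lists, with filled points for an edgeR adjusted p under 0.05, a black bar for the list median and a grey band for the central quartiles of all tested genes. The medians of the Polycomb lists (0.24 and 0.16) and of the HOX clusters (-0.35) lie inside the band, and that of the E2F factors and replication genes (1.24) lies above it.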

How the data were processed

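The samples, groups and replicate numbers were taken from the titles of the 4 libraries. The files deposited hold raw counts of reads per gene symbol, 1 library each, not normalized. Per the submitters' processing notes, TopHat2 2.1.1, HTSeq 0.11.0 and build hg38 were used, while the annotation and strand setting are not given in the sources used here. Without a known strand setting, reads of overlapping or antisense genes can be dropped or misplaced. The 5 closing lines of each file for reads given to no gene were left out of library sizes. Reads in genes were 84.6% to 86.1% of those listed.

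Genes were filtered with edgeR's filterByExpr (minimum count 10, minimum total 15), scaled by TMM and compared by the quasi-likelihood test of edgeR 4.0.16 (R 4.3.3, glmQLFit and glmQLFTest, treatment alone, two-sided), with Benjamini-Hochberg adjustment over 19159 genes and a threshold of 0.05. CPM use TMM-scaled library sizes, SE is the change over the square root of F, and 95% intervals use the t quantile with the fit's degrees of freedom. A count of 3 in a library is 0.0335 to 0.0458 CPM, and this covers counting error only. Exon lengths, positions and overlaps came from GENCODE 29 (GRCh38) and promoters from RefSeq (GRCh38.p14).

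The text names the 10 genes, paralogs that can replace them, and up to 6 called genes per list, ranked by the size of their log2 change. HOXB9 and BAP1 and some values of genes not called were chosen after values were seen. Results on some single genes are not reported here, and those genes were left out of the lists. The members and lists were chosen with earlier results of these data known. Alternatives were other scalings, filters, tools (DESeq2 1.42.0, limma-voom in limma 3.58.1, a robust fit), a threshold of 0.01, the replicate number as a block and each library left out. Scripts were tested on simulated data.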

Additional observations from a re-analysis of the deposited data

How the results depend on the processing

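With all 4 libraries and no block, no Polycomb gene among the 10 changed direction under another scaling, filter or tool, and RNF2 and JARID2 were called under each of these 8 alternatives. CBX8 passed the threshold with DESeq2 (log2 -0.96) and with every gene that had a count (log2 -0.98). At a threshold of 0.01 in edgeR's quasi-likelihood test, 0 of the 10 and 1 of the 34 other PRC1 and PRC2 genes were called. The counts were 0 for opposing genes, 0 for target genes, 9 for replication genes and 783 over all genes (172 higher, 611 lower). An unadjusted p under 0.05 was reached in the same test by 4 of the 10 genes and by 6490 of all 19159 tested genes. With every gene that had a count, 5518 genes were called (2202 higher, 3316 lower), with 9 target and 2 opposing genes. Library size only and DESeq2 each called 2 opposing genes, and DESeq2 called 8 target genes. DESeq2 called 4511 genes over the whole table, and the share of lower calls was 61.2% in the main fit and 51.5% with library size only, where the median gene shifted from 0.01 to 0.09.

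With 1 library left out, the lone library of a group is assumed to vary like the other group. The count called ranged from 0 to 2 of the 10 genes, 1 to 7 of the 34, 1 to 2 opposing genes, 0 to 7 target genes, 13 to 16 replication genes, and 1379 to 4292 over all genes (415 to 1651 higher, 964 to 2641 lower). The log2 change ranged from -1.12 to -0.85 for JARID2 and from 0.77 to 0.83 for RNF2.

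The replicate numbers are shared between groups, but the labels do not say that a number marks a shared culture or batch. Deviations of same-numbered libraries from their group means correlated at 0.442 across genes. This correlation was higher, at 0.612, once weakly expressed genes were left out. With the replicate number as a block, 7909 genes were called (3708 higher, 4201 lower; 41.3% of those tested), and 7 of the 10 genes, 16 of the 34, 4 opposing and 14 target genes. The log2 changes that passed only with the block were 0.34 for EZH2, 0.48 for EZH1, 0.36 for BMI1 and -0.48 for CBX2. CBX8 passed with it as well (-0.99). Low counts kept 11 of the 38 HOX genes and 19 of the 36 other developmental regulators out of the tests, and CBX8, with 348 to 731 counts per library, had the fewest among the 10.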
